A study of Mus musculus with 9 samples.

Results

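Cx3cr1, P2ry12, P2ry13, Tmem119, Siglech, Sall1, Gpr34 and Olfml3 are genes that resting, or homeostatic, microglia express at high levels in the healthy brain. They were taken by name from the 51912 genes in the deposited tables, where all 8 were found and all 8 averaged at least 1 CPM (a read count scaled to library size). The study injected male Camk2a-Cre mice of the C57BL/6 strain, in which the Camk2a promoter drives Cre in forebrain excitatory neurons, with a recombinant adeno-associated virus of serotype 5 (rAAV5). The vector made cells that express Cre glow red through mCherry and was given at 1 of 3 doses, 2.88e+08, 2.88e+09 or 2.88e+10 vector genomes, with the lowest as the control. Fluorescent cells were sorted 3 weeks later and sequenced in bulk, which gave 9 libraries, and the study asked how dose alters the transcriptome of pyramidal neurons. All groups share the Cre allele, the vector and the injection, and the mice's age is not given in the labels.

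The labels name the libraries S1001 to S1009 and assign none of them to a dose. The count columns are headed H1 to H3 in S1001 to S1003, M1 to M3 in S1004 to S1006 and L1 to L3 in S1007 to S1009. These letters are used below as names of libraries ("H libraries") and are not read as doses. No test between them was made, so each value stands for 1 library with its counting error, and ranges describe these 9 libraries only. Nothing in the labels of a single library ties it to an animal, and spread within a letter may be technical.

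Microglia are the resident macrophages of the brain parenchyma and derive from yolk sac progenitors, not from the neural lineage that gives rise to pyramidal neurons. Their survival depends on the receptor Csf1r, and their resting gene programme depends on TGF-beta signalling and on the transcription factor Sall1. Transcripts of this programme are known to fall when microglia are activated, and several of them are low or absent in the macrophages of the meninges and perivascular spaces, which also express Csf1r. The sort was aimed at neurons, and these are genes of a cell type it was not aimed at.

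P2ry12 and P2ry13 are neighbours on mouse chromosome 3 that differed less between H and M libraries when set against Csf1r. Olfml3, on the same chromosome, and Tmem119 differed most, by nearly the same fold (47.0 and 46.7 between medians). With each other reference gene used below, Tmem119 differed most. The 250 bases before the annotated starts of P2ry12, P2ry13 and Olfml3 are shown because these 3 genes stand toward opposite ends of the results below. Sequences and starts are from RefSeq on GRCm38.p6, all on the minus strand, and read 5′ to 3′ toward the start. Capitals mark 2 motifs that hold the GGAA core bound by ETS factors such as PU.1, the myeloid factor encoded by Spi1. They are GAGGAA and GGAAGT, searched on both strands (TTCCTC and ACTTCC in reverse), and the 2 can overlap by the 4 bases GGAA. The motifs were chosen after the levels of these genes were known.
P2ry12, chr3:59262986-59263235: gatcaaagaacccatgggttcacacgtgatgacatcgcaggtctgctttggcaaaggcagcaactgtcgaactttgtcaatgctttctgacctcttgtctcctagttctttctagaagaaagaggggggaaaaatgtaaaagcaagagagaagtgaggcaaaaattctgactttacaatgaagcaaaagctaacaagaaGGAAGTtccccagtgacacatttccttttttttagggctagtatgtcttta
P2ry13, chr3:59210883-59211132: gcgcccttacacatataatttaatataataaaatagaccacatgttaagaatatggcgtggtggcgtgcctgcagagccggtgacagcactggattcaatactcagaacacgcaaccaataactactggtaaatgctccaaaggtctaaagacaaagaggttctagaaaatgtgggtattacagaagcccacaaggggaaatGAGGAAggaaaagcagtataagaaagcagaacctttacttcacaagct
Olfml3, chr3:103738002-103738251: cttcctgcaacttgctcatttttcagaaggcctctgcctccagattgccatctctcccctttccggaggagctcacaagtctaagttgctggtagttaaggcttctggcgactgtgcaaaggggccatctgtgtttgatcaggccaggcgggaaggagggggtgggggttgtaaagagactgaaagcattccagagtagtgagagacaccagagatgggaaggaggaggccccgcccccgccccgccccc
In P2ry12, GGAAGT lay 51 to 46 bases before the start, and in P2ry13, GAGGAA lay 48 to 43 bases before it. Neither motif was found in these 250 bases of Olfml3, although the shorter GGAA core occurs there on both strands. This core also occurs outside the capitals in P2ry12 and P2ry13, so the marks do not show every GGAA. RefSeq promoter entries were matched for 6 of the 8 genes, all but Tmem119 and Gpr34. GGAAGT was found in 3 of the 6 (P2ry12, Siglech and 1 of the 3 entries of Sall1) and GAGGAA in 1 of the 6 (P2ry13). Of 32851 promoter entries of the same length, 19.7% held GGAAGT and 23.3% held GAGGAA. These shares are per entry, whereas the counts of 3 and 1 are per gene and gave Sall1 3 entries in which to match. A match describes the letters only, and no binding was measured here.

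In GENCODE release M21 on mm10, P2ry12 (ENSMUSG00000036353) spans chromosome 3 from 59216272 to 59262871 and P2ry13 (ENSMUSG00000036362) from 59207892 to 59210882. Both lie within Med12l on the opposite strand, with 9 and 0 shared exon bases. Olfml3 (ENSMUSG00000027848) spans 103722222 to 103738001 on the same chromosome. Cx3cr1 (ENSMUSG00000052336) lies on chromosome 9 from 119901616 to 120069879, and its long gene model overlaps 9 other genes, 1 of which (Gm33858, opposite strand) shares 78 exon bases with it. Tmem119 (ENSMUSG00000054675) lies on chromosome 5 from 113793729 to 113800516, Siglech (ENSMUSG00000051504) on chromosome 7 from 55768178 to 55778925, and Sall1 (ENSMUSG00000031665) on chromosome 8 from 89027235 to 89044162. Gpr34 (ENSMUSG00000040229) lies on chromosome X from 13632089 to 13640858, within Cask on the opposite strand and with 0 shared exon bases. Whether the counting used strand is not stated in the labels. Cask had 920 to 2234 counts per library and was highest in the L libraries, where Gpr34 was lowest.

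Library totals ranged from 12136830 to 19151596 counts, so that 3 counts, the upper limit that a count of 0 allows, correspond to 0.158 to 0.246 CPM. Every library held pyramidal neuron transcripts. The summed CPM of 6 pyramidal genes, among them Nrgn and Neurod6, was 3314 to 3753 in the H, 1675 to 1955 in the M and 3971 to 6001 in the L libraries. The H libraries resembled each other far more than other libraries of 1 letter did. A chi-square over genes, divided by its degrees of freedom, was 2.675 to 5.145 between pairs of H libraries, 24.26 to 33.58 between M and 27.21 to 38.86 between L libraries. The H libraries thus differed by more than counting error and are given singly; this does not show that they come from separate animals or pools, and whether they share a source was not tested. Mitochondrial genes took 1.45% to 1.52% of counts in the H, 0.866% to 1.15% in the M and 0.482% to 0.756% in the L libraries, and genes with a count numbered 25092 to 25478, 23214 to 25227 and 17906 to 20255. Both move with the levels below, and their part in them was not tested.

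The homeostatic genes made up a large signal in the H libraries, a smaller one in the M libraries and a trace in the L libraries. Their summed level was 1652, 1713 and 1713 CPM in S1001 to S1003. It was 235.0, 245.2 and 198.9 CPM in S1004 to S1006, and 14.9, 22.0 and 1.29 CPM in S1007 to S1009. The 3 sets of libraries did not overlap. In S1009 the 8 genes had 21 counts in all. In bulk RNA, fewer cells of a type and less RNA per cell cannot be told apart, so these sums do not count microglia.

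All 8 genes ranged at least 2-fold on the log2(CPM + 1) scale once the top and the bottom library of each gene were set aside, as did 26.4% of the 14787 genes whose mean reached 1 CPM. The median of this range was 6.27 log2 units over the 8 genes and 0.66 over all genes. All 8 were higher in every H than in every M library (23.0% of all genes) and higher in every H than in every L library (24.7%). In 6 of the 8, every M library also lay above every L library (17.0% of all genes), and these 6 were ordered H above M above L without overlap (5.93%). The exceptions were Tmem119 and Olfml3, whose M and L libraries overlapped. None of the 8 was highest in the M libraries, as 4.72% of all genes were.

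**Figure D1:**
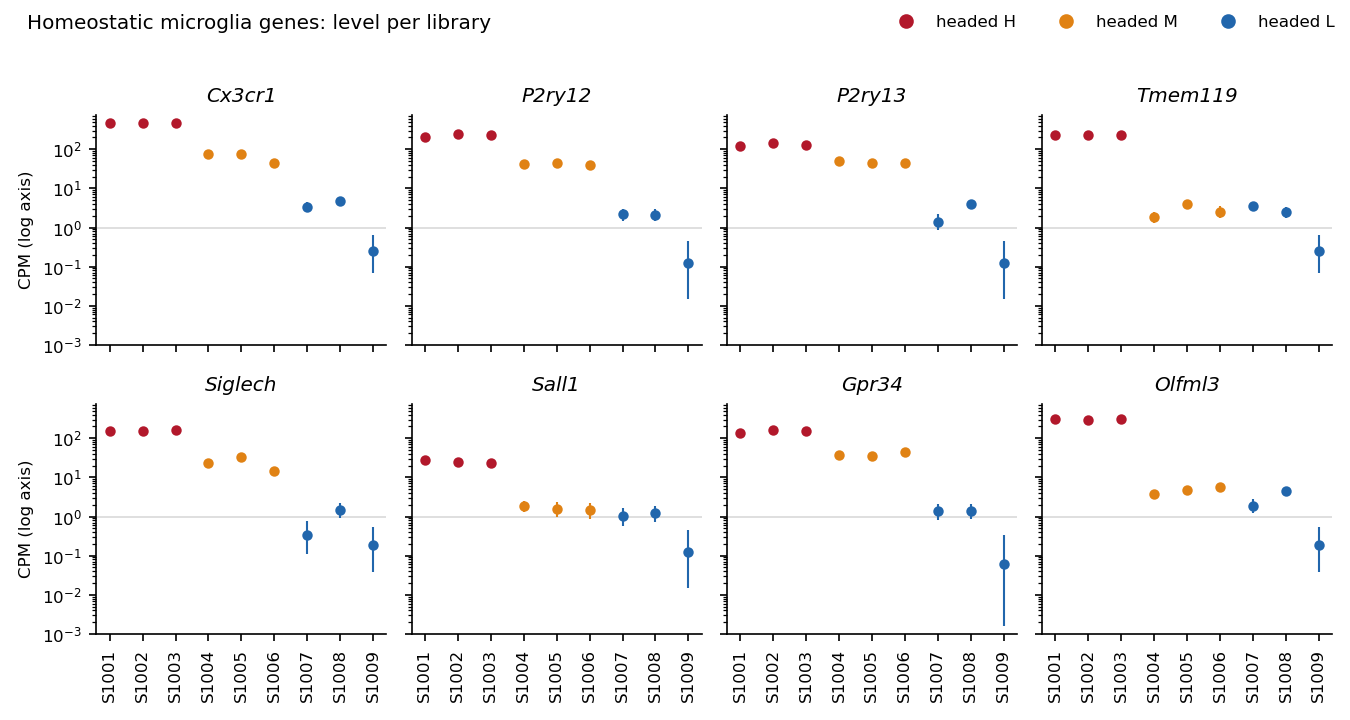
Level of each gene in CPM (log axis) in libraries S1001 to S1009, coloured by the letter in the count header; points are single libraries and bars are exact Poisson 95% intervals of the count, which cover counting error only, and the grey line marks 1 CPM. The H libraries are highest for all 8 genes, and for Tmem119 and Olfml3 the M libraries overlap the L libraries.

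Cx3cr1 encodes the receptor for fractalkine, a chemokine that neurons display on their surface. Its level was 466.6, 471.2 and 467.7 CPM in the H libraries, 74.5, 77.3 and 44.1 CPM in the M libraries, and 3.30, 4.81 and 0.246 CPM in the L libraries. S1006 was the lowest M library for this gene. The median of the H libraries was 6.28 times that of the M libraries, and single H and M libraries differed by 6.04-fold to 10.7-fold.

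P2ry12 and P2ry13 encode receptors for ADP, and P2ry12 steers microglial processes toward sites of injury. P2ry12 measured 210.5, 245.0 and 231.2 CPM in the H libraries, 43.0, 44.3 and 40.6 CPM in the M libraries, and 2.15, 2.13 and 0.123 CPM in the L libraries. P2ry13 measured 123.7, 140.4 and 131.7 CPM, then 49.2, 45.1 and 44.7 CPM, then 1.41, 3.96 and 0.123 CPM. For both genes the 3 M libraries lay close together and apart from the other 6. The H median was 5.38 times the M median for P2ry12 and 2.92 times for P2ry13, the smallest fold among the 8 genes.

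The relation between these neighbours differed between H and M libraries. There were 1.70, 1.75 and 1.76 P2ry12 counts per P2ry13 count in the H libraries (95% intervals from 1.60 to 1.86), and 0.873, 0.983 and 0.907 in the M libraries (0.794 to 1.10). The intervals of the H and M libraries did not overlap. The L libraries gave 1.52, 0.538 and 1.00, and the last rests on 2 counts of each gene.

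Gpr34 encodes a receptor for lysophosphatidylserine. Its level was 136.4, 161.3 and 153.7 CPM in the H libraries, 38.2, 35.2 and 45.0 CPM in the M libraries, and 1.35, 1.40 and 0.0616 CPM in the L libraries, the last from 1 count. The H median was 4.02 times the M median. S1006, the M library with the least Cx3cr1, had the most Gpr34. Siglech encodes a sialic acid-binding receptor that microglia share with plasmacytoid dendritic cells. It measured 148.5, 153.9 and 161.5 CPM in the H libraries, 22.7, 32.8 and 15.0 CPM in the M libraries, and 0.336, 1.46 and 0.185 CPM in the L libraries. Its M libraries were the most spread of the receptors, with S1005 above S1006 by more than their counting intervals.

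Tmem119, a transmembrane protein used to tell microglia from other brain macrophages, showed another pattern. It stood at 226.0, 224.0 and 237.5 CPM in the H libraries but at 1.84, 4.00 and 2.47 CPM in the M libraries, from 35, 58 and 34 counts. The L libraries held 3.50, 2.44 and 0.246 CPM. Its M and L libraries overlapped, and the H median was 91.5 times the M median (56.0-fold to 129-fold between single libraries).

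Olfml3, a secreted olfactomedin-like protein, followed the same course. It measured 313.1, 292.4 and 305.7 CPM in the H libraries, 3.74, 4.90 and 5.67 CPM in the M libraries, and 1.88, 4.57 and 0.185 CPM in the L libraries. The H median was 62.4 times the M median (51.6-fold to 83.8-fold between single libraries). S1008 was the L library that reached into the M range. Without S1004 or without S1008, Olfml3 joined the genes ordered H above M above L, which made 7 of 8.

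Sall1, the zinc finger transcription factor that maintains microglial identity, was the least abundant of the 8. Its level was 27.4, 25.0 and 23.9 CPM in the H libraries, 1.84, 1.52 and 1.45 CPM in the M libraries, and 1.01, 1.22 and 0.123 CPM in the L libraries. The H median was 16.5 times the M median. The M and L libraries did not overlap, but apart from S1009 they held only 15 to 35 counts each, and the intervals of M and L libraries overlapped.

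Per length, in the deposited FPKM (fragments scaled to gene length and library size), Cx3cr1 was the highest of the 8 in the H libraries at 103.9 to 104.9. Tmem119 followed at 97.0 to 102.7, then P2ry12 at 83.1 to 96.5 and Gpr34 at 65.6 to 77.4. P2ry13 (49.2 to 55.7), Olfml3 (47.6 to 51.1) and Siglech (44.1 to 47.8) overlapped with their neighbours in that order, and Sall1 was lowest at 4.55 to 5.24. In the M libraries the order differed. Gpr34 (17.6 to 22.1), P2ry13 (18.1 to 19.3), P2ry12 (16.3 to 18.2) and Cx3cr1 (10.0 to 17.9) formed an overlapping top, Siglech stood at 4.54 to 10.1, and Tmem119 (0.790 to 1.81), Olfml3 (0.600 to 0.940) and Sall1 (0.280 to 0.350) were all low.

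The share each gene took of the 8 genes' counts shows the same contrast within single libraries, free of library scaling. Tmem119 made up 13.1% to 13.9% of the 8 genes' counts in the H libraries and 0.784% to 1.63% in the M libraries. Olfml3 made up 17.1% to 18.9% and 1.59% to 2.85%. P2ry13 went the other way, with 7.48% to 8.20% in the H and 18.4% to 22.5% in the M libraries. Gpr34 did so too, with 8.25% to 9.41% and 14.4% to 22.6%, and P2ry12 with 12.7% to 14.3% and 18.1% to 20.4%. The shares of a library add up to a whole, so lower shares of Tmem119 and Olfml3 raise those of the other genes. In CPM, P2ry13, Gpr34 and P2ry12 were each lower in every M library than in every H library. Cx3cr1 held 27.3% to 28.2% and 22.1% to 31.7%, which overlap. In S1007 and S1008, from 222 and 361 counts, Tmem119 was again 23.4% and 11.1%, and Olfml3 12.6% and 20.8%.

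**Figure D2:**
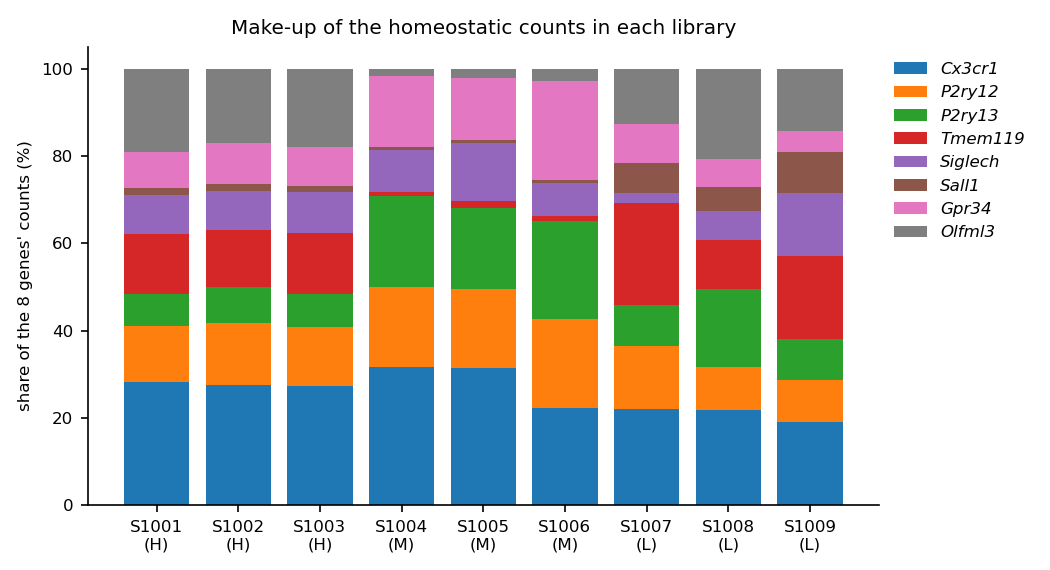
Share of the summed counts of the 8 genes that each gene took in each library, in percent; 1 bar per library, stacked by gene. Tmem119 and Olfml3 together take a wide band in the H libraries and a thin one in the M libraries, where P2ry12, P2ry13 and Gpr34 take more; S1009 rests on 21 counts.

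Csf1r, which microglia and other macrophages both express, differed less than any of the 8 genes between the H and M libraries, by 1.40-fold between medians. It measured 473.2, 460.6 and 466.5 CPM in the H libraries, 332.4, 350.9 and 237.4 CPM in the M libraries, and 3.63, 11.8 and 0.863 CPM in the L libraries. The Csf1r gene shares 15.1% of its exon bases with Hmgxb3 on the opposite strand, which had 73 to 298 counts, more than Csf1r in the L libraries. In the L libraries Csf1r had 54, 193 and 14 counts, so ratios to it there are imprecise.

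Relative to Csf1r, all 8 genes were lower in every M library than in every H library, a pattern found in 6.26% of 14786 genes. The ratio of Olfml3 to Csf1r was 0.662, 0.635 and 0.655 in the H libraries and 0.0112, 0.0140 and 0.0239 in the M libraries. For Tmem119 it was 0.478, 0.486 and 0.509 against 0.00554, 0.0114 and 0.0104. The medians differed 47.0-fold for Olfml3 and 46.7-fold for Tmem119, and single libraries by 26.6-fold to 58.9-fold and by 41.9-fold to 91.9-fold. Sall1 came next, with ratios of 0.0580, 0.0542 and 0.0513 against 0.00554, 0.00432 and 0.00612, a 9.78-fold difference of medians.

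The other 5 genes differed less relative to Csf1r. The ratio of Siglech was 0.314, 0.334 and 0.346 in the H libraries and 0.0684, 0.0935 and 0.0631 in the M libraries (4.88-fold). Cx3cr1 counts nearly equalled Csf1r counts in the H libraries, at ratios of 0.986, 1.02 and 1.00, and stood at 0.224, 0.220 and 0.186 in the M libraries (4.55-fold). The ratio of P2ry12 was 0.445, 0.532 and 0.496 against 0.129, 0.126 and 0.171 (3.84-fold), and that of Gpr34 was 0.288, 0.350 and 0.330 against 0.115, 0.100 and 0.190 (2.87-fold). P2ry13 differed least, at 0.261, 0.305 and 0.282 against 0.148, 0.129 and 0.188 (1.91-fold).

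How many genes this held for depended on the reference gene. With Itgam, an integrin subunit of myeloid cells, in place of Csf1r, 3 of the 8 were lower in every M library (Tmem119, Olfml3 and Sall1). P2ry12, P2ry13, Siglech and Gpr34 had a higher median ratio in the M libraries. Itgam itself was 45.9 to 47.3 CPM in the H and 3.84 to 7.72 CPM in the M libraries, there from 73 to 112 counts. Dividing by a gene that is this much lower in the M libraries raises the ratios there. With the sum of 16 pan-myeloid genes or with Laptm5 the count was 6, and with Aif1 it was 7. It was 8 with Spi1, Ptprc or Fcrls. The share of all genes was taken with Csf1r only (6.26%). The counts with other references thus have no share beside them and cannot be compared with each other. Tmem119, Olfml3 and Sall1 had the 3 largest differences with each of these references, but their size varied. Between medians it was 8.04-fold (Itgam) to 47.0-fold (Csf1r) for Olfml3, 10.3-fold (Itgam) to 61.7-fold (Spi1) for Tmem119, and 2.63-fold (Itgam) to 11.8-fold (Spi1) for Sall1.

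**Figure D3:**
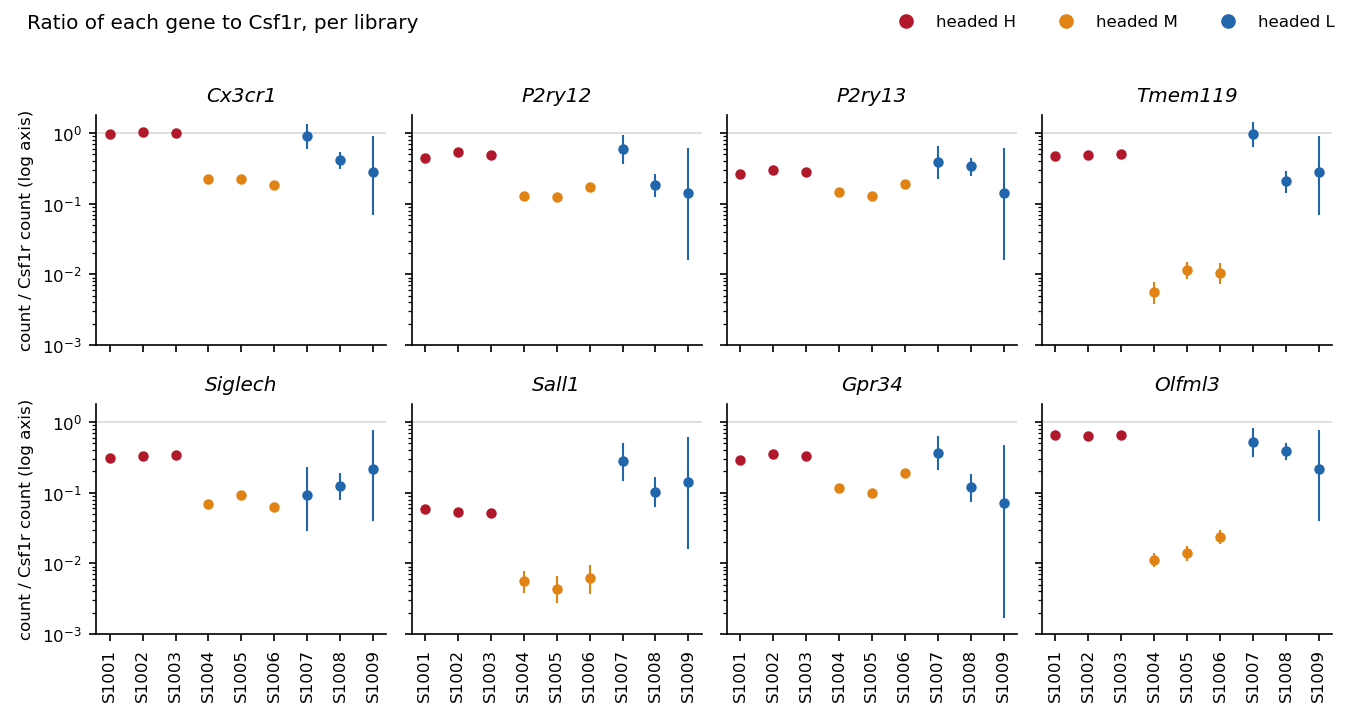
Counts of each gene per Csf1r count in each library (log axis); points are single libraries, coloured by header letter, bars are exact 95% binomial intervals, and the grey line marks a ratio of 1. Tmem119 and Olfml3 are at 0.00554 to 0.0239 in the M libraries, far under the H libraries, while the L libraries have wide intervals.

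In the L libraries, where few counts were left, the ratio to Csf1r overlapped that of the M libraries for P2ry12, P2ry13, Siglech and Gpr34. It was higher in every L than in every M library for the other 4 genes (Cx3cr1, Tmem119, Sall1 and Olfml3), which at 4 of 8 is a smaller share than the 92.3% of all genes. For Tmem119 it was 0.963 (0.645 to 1.44) in S1007, 0.207 (0.144 to 0.293) in S1008 and 0.286 (0.0685 to 0.910) in S1009, with no interval reaching the M libraries. For Olfml3 it was 0.519, 0.389 and 0.214, and for Cx3cr1 0.907, 0.409 and 0.286. The interval of Cx3cr1 in S1009 (0.0685 to 0.910) did reach the M libraries. Against the H libraries, 3 genes were lower in every L library (Cx3cr1, Siglech and Olfml3; 2.62% of all genes had a higher ratio in every H library). Counting error leaves these 3 orders unsure, because an interval of each gene reached the H libraries. It was 0.604 to 1.36 for Cx3cr1 and 0.316 to 0.833 for Olfml3 in S1007, and 0.0395 to 0.768 for Siglech in S1009. Sall1 alone was higher in every L library, at 0.278, 0.104 and 0.143, as 92.2% of all genes were. The interval of Sall1 in S1009, from 2 counts, was 0.0158 to 0.622 and reached the H libraries.

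Ratios between the 8 genes need no reference gene. There were 1.07, 0.914 and 1.03 Tmem119 counts per P2ry12 count in the H libraries, 0.0429, 0.0902 and 0.0609 in the M libraries, and 1.62, 1.143 and 2.00 in the L libraries. The M libraries stood apart from both other sets, although in S1009 the value rests on 4 and 2 counts. Olfml3 per P2ry12 count was 1.49, 1.19 and 1.32, then 0.0870, 0.110 and 0.140, then 0.875 and 2.14 in S1007 and S1008. Cx3cr1 per P2ry12 count differed less, at 1.92 to 2.22 in the H libraries and 1.09 to 1.74 in the M libraries.

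Genes of border macrophages, which line the meninges and vessels, were highest where these ratios were lowest. All 9 on the list, among them the mannose receptor Mrc1 and the carbonyl reductase Cbr2, were higher in every M library than in any other, as 4.72% of all genes were. Their summed level was 479 to 487 CPM in the H, 1867 to 2576 CPM in the M and 2.77 to 18.4 CPM in the L libraries. Mrc1 measured 89.0, 100.0 and 102.1 CPM in the H libraries and 422.9, 346.3 and 400.1 CPM in the M libraries. All 9 were also higher relative to Csf1r in every M than in every H library, as were 58.7% of all genes. The part of these cells' RNA in the ratios of the 8 genes was not tested.

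Other cell types were checked in the same way. The oligodendrocyte list summed to 342 to 356 CPM in the H libraries and 25.9 to 40.1 CPM in the M libraries. All 5 genes were higher in every H than in every M library (23.0% of all genes). The astrocyte list summed to 93.0 to 98.8 and 42.7 to 97.3 CPM. The 7 monocyte genes summed to 62.1 to 66.9 CPM in the H, 6.47 to 27.9 CPM in the M and 0.431 to 7.37 CPM in the L libraries. Ly6c2 stood at 49.0 to 52.8 CPM in the H libraries and had no count in the other 6, whereas Fn1 stood at 2.87 to 4.04 CPM in the H and 4.47 to 23.8 CPM in the M libraries. Ccr2, which defines these cells, stood at 0.915 to 2.05 CPM in the H libraries and at or below 0.363 CPM elsewhere. Of plasmacytoid dendritic cell genes, a cell type that also expresses Siglech, Ccr9, Klk1 and Spib stood at or below 0.436 CPM in all 9 libraries. Ly6d stood at 7.09 to 8.36 CPM in the H and at most 0.138 CPM in the other libraries, and Cox6a2 at 0.493 to 7.05 CPM over the 9. Endothelial genes summed to at most 3.11 CPM. Inhibitory neuron genes summed to 170.0 to 206.1 CPM in the H, 517.6 to 860.4 CPM in the M and 292.7 to 1314 CPM in the L libraries, and all 4 were higher relative to Csf1r in every M than in every H library (58.7% of all genes). The part of these cells in the results was not tested.

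**Figure D4:**
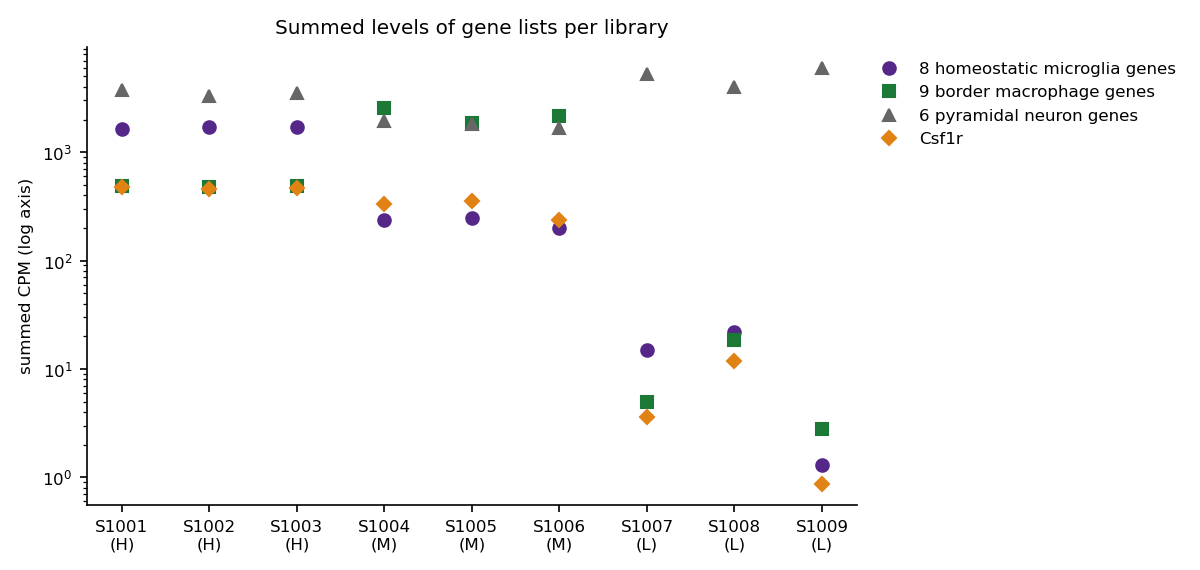
Summed CPM (log axis) in each library of the 8 homeostatic genes, 9 border macrophage genes and 6 pyramidal neuron genes, with the CPM of Csf1r; 1 marker shape per list, and header letters under the library names. The 8 homeostatic genes sum to 1652 to 1713 CPM in the H and 199 to 245 CPM in the M libraries, whereas the border macrophage genes are highest in the M libraries at 1867 to 2576 CPM.

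Of 15 further homeostatic genes, 14 had a mean of at least 1 CPM, and all 14 ranged at least 2-fold (26.4% of all genes). In 11 the level was higher in every H than in every M library, and in 9 the ratio to Csf1r was (23.0% and 6.26% of all genes). Fcrls, an Fc receptor-like protein, stayed close to Csf1r, with a ratio of 0.866 to 0.909 in the H and 0.796 to 1.03 in the M libraries. The ratio was higher in every M library for 3 of the 14, against 58.7% of all genes; they were Ltc4s, Rnase4 and P2ry6, named after their values were seen.

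Of 16 pan-myeloid genes, 15 were ordered H above M above L (5.93% of all genes), and 9 of the 15 other than Csf1r had a higher ratio to it in every H than in every M library (6.26%). The complement subunit C1qb stood at 3326 to 3925 CPM in the H, 1166 to 1615 CPM in the M and 2.90 to 23.6 CPM in the L libraries, and C1qc at 2851 to 3172, 1303 to 1729 and 3.39 to 19.2 CPM. The exception in order was Coro1a, an actin-binding protein also found in neurons, at 199 to 269 CPM in all 9 libraries.

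The listed microglial transcription factors and TGF-beta pathway genes were mixed. Of 14 genes, 10 ranged at least 2-fold (26.4% of all genes) and 6 were ordered H above M above L (5.93%). A higher ratio to Csf1r in every H than in every M library was found in 6 (6.26%). Mef2c, which neurons also express, was 114 to 125 CPM in the H and 93.8 to 122 CPM in the M libraries. Nrros, which presents TGF-beta on microglia, was 76.2 to 85.1 and 73.6 to 119 CPM. The receptor Tgfbr2 was 53.1 to 57.9 and 22.7 to 51.7 CPM. Its partner Tgfbr1, named after its values were seen, was 94.2 to 116.8 and 10.5 to 18.3 CPM.

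Among ligands of microglial receptors, Cx3cl1, the ligand of Cx3cr1, was 889 to 947 CPM in the H, 467 to 746 CPM in the M and 1111 to 1775 CPM in the L libraries. It was highest in the L libraries, where its receptor was lowest. Of the ligands of Csf1r, Csf1 was 110 to 120 CPM in the H and 3.92 to 6.28 CPM in the M libraries, and Il34, made by neurons, was 36.3 to 42.6 CPM in the H and 60.3 to 93.4 CPM in the M libraries.

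Outside the 8 themselves, the genes whose profile over the 9 libraries lay nearest to each were found among 9646 genes that averaged at least 10 CPM. Likeness was measured as the root mean square difference of median-centred log2(CPM + 1) values, and it is a description. For Cx3cr1 the nearest were Tnf (0.28), H2-K1 (0.42) and Trem2 (0.43), and for P2ry12 Tnf (0.32), Cxcl16 (0.45) and Msn (0.47). P2ry13 lay nearest to Ptprc (0.30), Msn (0.30) and Cxcl16 (0.39), Gpr34 to Lyn (0.28), Msn (0.29) and Cxcl16 (0.41), and Siglech to Itgb2 (0.26), Tlr2 (0.32) and Slc11a1 (0.34). For Tmem119 they were Cxcl9 (0.55), Itgax (0.57) and Gpr84 (0.61). Olfml3 lay nearest to Cd9 (0.50), Sparc (0.52) and Cd52 (0.60), and Sall1 to Sowahc (0.26), Isg15 (0.43) and Cldn11 (0.44). Within the 8, P2ry12 and Gpr34 were the most alike pair (0.30), nearer than any gene outside the 8 was to P2ry12. P2ry12 lay 0.36 from Cx3cr1, and Tmem119 and Olfml3 lay 0.45 from each other, nearer than any gene outside the 8 to either.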

How the data were processed

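RNA from sorted hippocampal cells was measured in 9 libraries. Per the file headers, the authors deposited raw counts and FPKM values for each Ensembl gene. Build mm10, HTSeq 0.6.1, HISAT2 2.0.1, Trimmomatic 0.30 and bcl2fastq 2.17.1.14 are listed in the submitters' processing notes; annotation and strand setting: not given in the sources used here. Symbols for 51633 (99.46%) of the 51912 identifiers came from GENCODE release M21.

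TMM factors (edgeR 4.0.16, R 4.3.3) scaled the counts to CPM, and log2(CPM + 1) was described for genes whose mean reached 1 CPM. A gene's range ran from its second lowest to its second highest library. Since 0 of 9 libraries have a dose in the labels, no test was made, and header letters only name libraries. Intervals are exact 95% Poisson (counts) or Clopper-Pearson (ratios) and cover counting error only. The calculations were run with Python 3.11.15, numpy 2.4.6, pandas 2.3.3, scipy 1.17.1 and matplotlib 3.10.9. Of them, only the calls of a 2-fold range and of the order H above M above L were tested on simulated data.

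Genes named were all 8 genes, Csf1r, the ligands, of each other list the 2 of highest mean and the 1 of widest range, and the 3 nearest in profile to each gene. Of the lists named for other cell types, some genes are given only as sums, and a few that this rule picks are not reported here. The members and lists were chosen with earlier results of these data known. Alternatives were total counts, DESeq2 1.42.0 size factors, FPKM, other pseudocounts, minimums and reference genes, and leaving out each library.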

Additional observations from a re-analysis of the deposited data

How the results depend on the processing

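No paired analysis was possible because the labels give the libraries no groups. The count of genes ranging at least 2-fold was 8 under total counts, DESeq2 size factors, FPKM, pseudocounts of 0.5 and 5 CPM, no minimum and the full range, and 8 without any single library; with a minimum mean of 10 CPM it was 7, because Sall1 was left out. The ranges themselves moved in 28 of their alternative values: with a pseudocount of 5 CPM they were 2.32 (Sall1) to 5.83 (Cx3cr1) log2 units, with FPKM Sall1 had 2.27 and Olfml3 5.28, and without S1007 or without S1009 P2ry13 had 4.74 in place of 5.78. The count ordered H above M above L was 6 under each scaling and with S1001 to S1003 averaged, and ranged from 6 to 7 without single libraries. The count with a lower ratio in every M library was 8 without any single library and 3 with Itgam as reference, for which the share of all genes was not taken. On the log2 scale of M over H, the median ratio changed sign with Itgam for P2ry12 (0.23), P2ry13 (1.19), Siglech (0.35) and Gpr34 (0.97). For P2ry13 it also did so with the pan-myeloid sum (0.010) and Laptm5 (0.15). These references were themselves lower in the M libraries by more than Csf1r was, and why was not tested. Averaging S1001 to S1003 and the reference Fcrls were chosen after seeing the data. Depth limits the L libraries most, where S1009 has 1 to 4 counts per gene.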

Other observations

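Genes that rise in microglia around plaques and lesions, known as disease-associated microglia genes, were also high in the H libraries. Of 9 such genes, 8 were higher in every H than in every M library and 7 were so relative to Csf1r (23.0% and 6.26% of all genes). Cst7, an inhibitor of lysosomal proteases, stood at 659 to 698 CPM in the H libraries and at 0 to 1.38 CPM in the other 6. Cd9, a tetraspanin, stood at 802 to 825 CPM in the H and 7.92 to 12.3 CPM in the M libraries. Apoe, a lipid carrier that border macrophages and astrocytes also make, was the exception, at 5698 to 6476 CPM in the H and 10690 to 13830 CPM in the M libraries. High Tmem119 and Olfml3 and high Cst7 and Cd9 were thus found in the same 3 libraries.

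Other genes of purine signalling did not follow P2ry12 and P2ry13 as a set. Of 8 receptors and ectonucleotidases, 6 had a mean of at least 1 CPM. Of these 6, 2 were ordered H above M above L (5.93% of all genes), P2rx4 and Entpd1, and 1 was highest in the M libraries (4.72%). The latter was P2rx7, named after its values were seen, at 21.6 to 25.0 CPM in the H and 37.6 to 49.3 CPM in the M libraries. P2rx4, an ATP-gated channel, was 74.4 to 79.7 CPM in the H and 64.1 to 74.1 CPM in the M libraries. Entpd1, which breaks down ATP, was 90.6 to 105.1 CPM in the H and 42.4 to 60.4 CPM in the M libraries.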
